A study of Sus scrofa with 12 samples.

Results

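Cytoplasmic ribosomal proteins are the protein components of the ribosome that translates nuclear messages. In the deposited expression table of pig (Sus scrofa) blastocysts, 57 of 31781 genes encoded one, 29 of the large subunit and 28 of the small subunit. They were taken by symbol, as names that begin with RPL or RPS and a number, together with RPLP0, RPLP1, RPLP2 and RPSA. The 10 RPS6K kinases, and RPS19BP1, a binding protein whose name ends as a pseudogene's would, were left out. Of the 57 genes, 51 were core proteins and 6 were paralogs, that is copies named after a core gene (RPL10L, RPL3L, RPL26L1, RPL36AL, RPL7L1 and RPS27L). A further 26 ribosomal protein symbols of the RefSeq pig annotation, among them RPS6, RPS19, RPL8 and RPL39, were matched to no identifier by symbol and were not analysed here.

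The blastocysts came from parthenogenetic activation, in which an unfertilised egg develops without sperm, so every group lacks a paternal genome. RNA of 11 libraries was analysed, made with Smart-Seq2, a poly(A)-primed method for very small inputs. The groups were vitrification (2 libraries), vitrification I (3 libraries), vitrification II (3 libraries) and fresh control, which was not vitrified (3 libraries). Vitrification preserves embryos by cooling them too fast for ice to form. Liquid helium stands in the title of the series, but how the vitrified groups differed, which of them it was used for, and the age of the embryos are not given in the sources used here. The source label of every library is blastocyst, whereas the protocol describes sorted single cells. If each library is 1 cell or 1 embryo, the p-values measure the spread between such units, which may be technical. Fresh control replicate 1 is called control 1 below, and the other libraries are named likewise.

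A ribosome has a large (60S) and a small (40S) subunit, each a core of ribosomal RNA with its own set of proteins. The small subunit reads the message, and the large subunit forms the peptide bond and releases the chain through a tunnel. The proteins are needed in near-equal numbers, and those made in excess are degraded. In mammals their messages begin with a terminal oligopyrimidine motif, through which mTOR signalling and the protein LARP1 set their translation as a group. Genome activation, at which the embryo begins to transcribe its own genes, precedes the blastocyst stage.

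Values are FPKM as deposited, a fragment density corrected for gene length and for the size of the library. They are shares of a library, so fewer cells of a type and less RNA per cell cannot be told apart, and sequencing depth is unknown. Summed FPKM ran from 439650.4 to 591894 per library, and the genes above 0 from 11550.0 to 18527. Vitrification I replicates 3 and 1 were the lowest in this respect, with 11550.0 and 12340.0 genes. The 13 genes of the mitochondrial genome held 38.7% and 51.8% of the FPKM in vitrification, 58.9%, 43.8% and 64.3% in vitrification I, 19.7%, 22.1% and 16.9% in vitrification II, and 43.9%, 37.6% and 38.3% in fresh control. Of the markers of trophectoderm, the outer epithelium of a blastocyst, 9 of 9 were above 0 in every library. Their summed level was 6446 and 16842 FPKM in vitrification, 2461 to 5684 FPKM in vitrification I, 13423 to 21826 FPKM in vitrification II and 10273 to 15276 FPKM in fresh control. Of 6 cumulus and granulosa cell markers 0 passed the filter on low values, HAS2 and PTX3 were at 0 throughout, and the sum was at most 3.90 FPKM. Of 7 leukocyte and erythroid markers 3 passed that filter, and PTPRC and ALAS2 were at 0 throughout. The sum was highest in control 1 with 20.2 FPKM and in vitrification 2 with 14.9 FPKM. It was at most 5.73 FPKM in any other library. LYZ and CD68 were highest in control 1 and HBB in vitrification 2. The part of these markers in the results below was not tested.

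The ribosomal protein genes were among the most abundant messages, and 50 of the 57 averaged at least 100 FPKM. RPLP1, an acidic protein of the stalk that recruits elongation factors, stood highest with a mean of 1559.8 FPKM over the 11 libraries. RPS26, which lines the exit channel of the message, followed with 1256 FPKM, and RPLP0, the base of the stalk, with 1248 FPKM. RPS15 and RPL23 averaged 1188 and 1186 FPKM. The lowest of those that passed the filter were RPL35 with 25.7 FPKM, RPL7L1 with 26.2 FPKM and RPL28 with 59.5 FPKM. FPKM is corrected for gene length, yet ribosomal protein genes have many processed pseudogenes, and how the authors assigned reads shared with such copies is not given in the sources used here. Levels of single genes are therefore uncertain, those of close paralogs the most. RPL10L and RPL3L, which in human replace their parent proteins mainly in testis and in muscle, had at most 1.35 and 0.335 FPKM. They did not reach 1 FPKM in at least 3 libraries, the filter on low values, so 55 genes were tested among 9411 genes kept.

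The order of the genes by level was much alike in all libraries. Across the 55 genes, Pearson's r of log2(FPKM + 1) lay between 0.958 and 0.994 for the 10 pairs of libraries within a group. It lay between 0.895 and 0.975 for the 45 pairs from different groups. These are descriptions over genes of shared libraries, and genes are not independent replicates. The summed FPKM of the large subunit genes was between 0.791 and 0.926 times that of the small subunit genes in every library.

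The share of all FPKM that the 57 genes held differed most in vitrification I. It was 6.28% and 3.29% in vitrification, 2.52%, 3.68% and 1.94% in vitrification I, 7.20%, 6.30% and 7.14% in vitrification II, and 4.63%, 6.60% and 6.07% in fresh control. All 3 vitrification I libraries lay below all 3 control libraries, whereas the vitrification II libraries overlapped the controls. The means were 4.78% ± 2.11 (SD, n = 2), 2.71% ± 0.887, 6.88% ± 0.502 and 5.76% ± 1.02 (SD, n = 3 each) in the same groups. Of the FPKM outside the mitochondrial genome the genes held 8.53% ± 2.43 in vitrification, 6.04% ± 0.565 in vitrification I, 8.55% ± 0.440 in vitrification II and 9.55% ± 1.18 in fresh control. On that scale vitrification II no longer had the highest mean, and vitrification I still lay apart, with 5.44% to 6.56% against 8.25% to 10.6% in fresh control. The shares are given without a test.

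**Figure D1:**
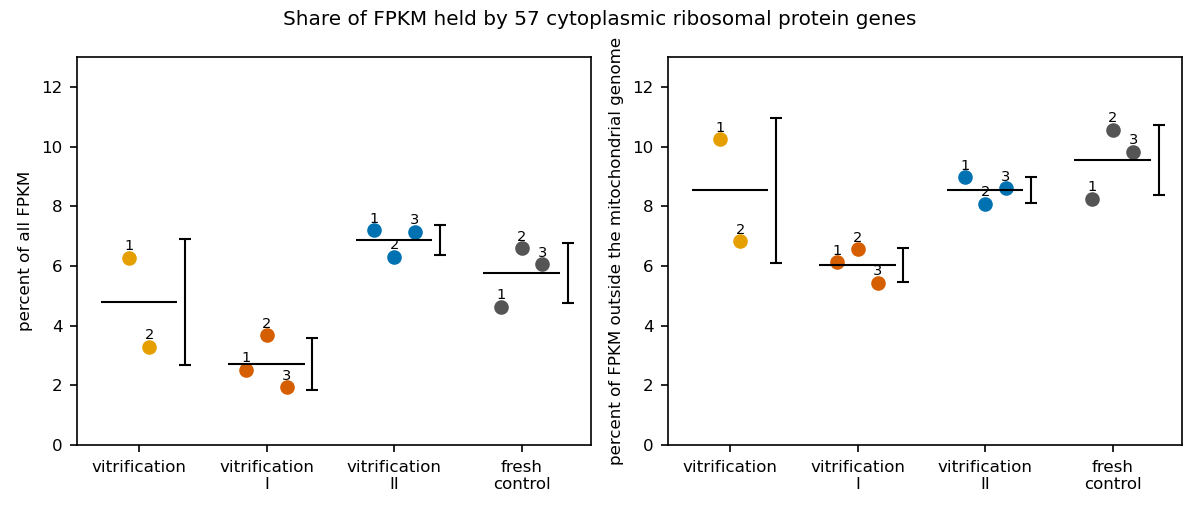
Share of FPKM held by 57 ribosomal protein genes in each of 11 libraries, as percent of all FPKM (left) and of the FPKM outside the mitochondrial genome (right). Points are libraries with their replicate number, horizontal lines are group means and bars at the right are ± 1 SD; the 3 vitrification I libraries lie at 1.94% to 3.68% on the left, below the controls at 4.63% to 6.60%.

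Gene by gene, the same group stood lowest. The mean FPKM was lowest in vitrification I for 53 of the 55 genes and for all 51 core genes. It was highest in vitrification II for 28 genes, in fresh control for 24, in vitrification for 2 and in vitrification I for 1. The 2 genes with their lowest mean elsewhere were RPS27L (vitrification II) and RPL36AL (vitrification), both paralogs. Libraries within a group also differed across nearly the whole family. Vitrification I replicate 3 was the lowest of all 11 libraries for 40 genes, and vitrification I replicate 2 the highest of its group for 52. Control 1 was the lowest control for 43 genes, and vitrification 2 lay below vitrification 1 for 53, at a median ratio of 0.516. RPS27L varied least, with a highest library 1.90 times its lowest, and RPL23A most, with a ratio of 8.89. These orders were counted in the family only, so no share of all genes stands beside them. The median log2(FPKM + 1) of the family averaged 8.43 in vitrification, 7.65 in vitrification I, 8.77 in vitrification II and 8.88 in fresh control. Over all genes kept it averaged 2.39, 2.11, 2.91 and 2.03 in the same groups.

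**Figure D2:**
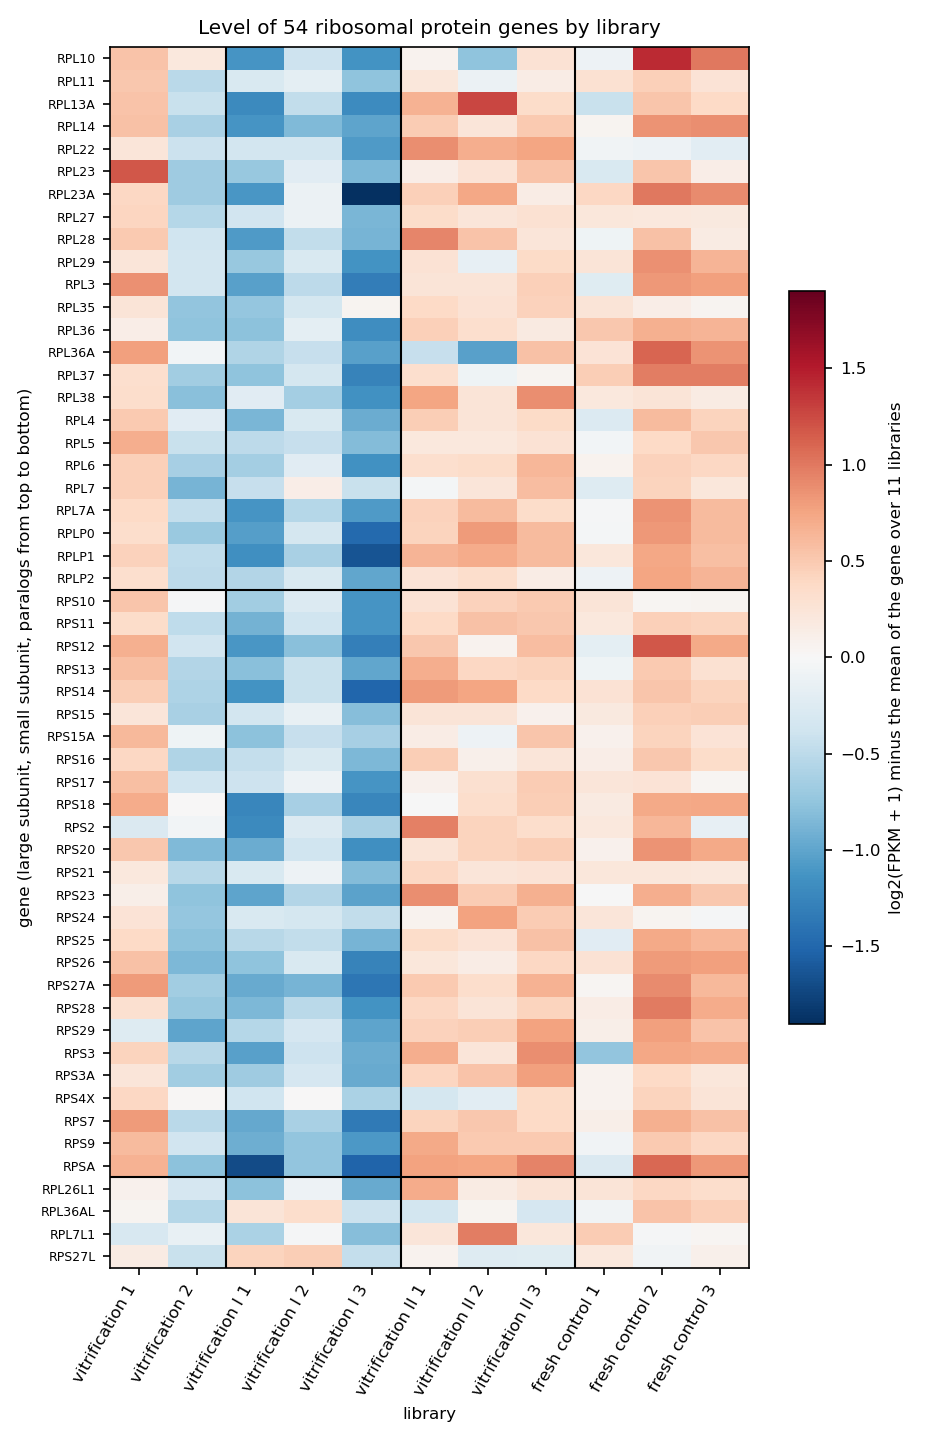
Level in each library of 54 of the 55 genes that passed the filter, as log2(FPKM + 1) minus the gene's mean over the 11 libraries; red is above and blue below that mean. Columns are libraries and rows are large subunit genes, small subunit genes and paralogs; the vitrification I columns are blue in most rows, and RPL36AL and RPS27L, near the bottom, are above their mean in vitrification I replicates 1 and 2.

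A linear model with a mean per group was fitted to log2(FPKM + 1) of the 9411 genes with limma, and genes were called, as risen or fallen, at an adjusted p under 0.05 (Benjamini-Hochberg over all genes kept). The moderated F test, which asks whether any of the 4 groups differed, called 32 of the 55 genes, where 42.7% of all genes, and 45.1% of the genes with a mean of at least 100 FPKM, were called. RPLP1, RPSA, RPS18, RPS23 and RPS14 had small adjusted p, between 0.00392 and 0.00960. Leaving out vitrification I replicate 1 or 3 gave 11 and 13 calls. Leaving out control 2 or 3 gave 18 and 20, and leaving out vitrification II replicate 1 or 2 gave 21 and 20. There were 7 calls after rescaling to the nuclear total, that is the summed FPKM of genes not on the mitochondrial genome, and 20 after quantile normalization.

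Vitrification I set against fresh control asks how these messages stood after that procedure. Of the 55 genes 25 fell and 0 rose, 11 of the 27 large subunit genes and 14 of the 28 small subunit genes. This was 45.5% of the family, where 9.77% of all 9411 genes fell and 8.85% rose. Among the 565 genes with a mean of at least 100 FPKM, which are nearer in level, 25.1% fell and 5.13% rose. The fitted change on the log2(FPKM + 1) scale had a median of -1.02 over the family and -0.06 over all genes, and 54 of the 55 changes were below 0. In 49 genes no vitrification I library reached the lowest control, which was so for 18.9% of all genes.

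Of the 3 proteins of the stalk and its base in the large subunit, 2 fell. RPLP1 had 609, 896 and 440.2 FPKM in vitrification I libraries, against 1593, 2286 and 2048 FPKM in fresh control libraries. Every vitrification I library lay below every control, and the change was -1.65 ± 0.35 (adjusted p = 0.00555). RPLP0, on which the stalk proteins assemble, had 535, 881 and 399 FPKM in vitrification I libraries, against 1078, 1964 and 1678 FPKM in fresh control libraries, and fell by 1.41 ± 0.38 (adjusted p = 0.0198). RPLP2, the partner of RPLP1 in the stalk dimers, had 91.6, 109.7 and 67.6 FPKM in vitrification I libraries, against 126, 226 and 211 FPKM in fresh control libraries. Its change of -1.04 ± 0.36 (adjusted p = 0.0527) did not pass the test, although the groups did not overlap.

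Elsewhere in the large subunit RPL23A, which sits at the tunnel exit, had 287, 573 and 139.6 FPKM in vitrification I libraries, against 807, 1241 and 1155 FPKM in fresh control libraries, a change of -1.88 ± 0.46 (adjusted p = 0.0114). This was the largest fall in the family, and vitrification I replicate 2 came closest to the controls. RPL10, which joins late and completes the subunit, had 307, 509.8 and 304 FPKM in vitrification I libraries, against 624, 1789 and 1341 FPKM in fresh control libraries, with a change of -1.65 ± 0.42 (adjusted p = 0.0137). The controls themselves ranged widely for this gene, with control 1 far below the others. RPL3, at the peptidyl transferase centre, fell by 1.41 ± 0.40 (adjusted p = 0.024). RPL37 and RPL14 fell by 1.59 ± 0.36 (adjusted p = 0.00891) and 1.58 ± 0.36 (adjusted p = 0.00891). RPL5 and RPL11, which bind the 5S RNA and, when free, the p53 regulator MDM2, had changes of -0.86 ± 0.34 (adjusted p = 0.0927) and -0.75 ± 0.34 (adjusted p = 0.13) and did not pass. RPL5 had 151, 157 and 119.6 FPKM in vitrification I libraries, against 205, 276 and 305 FPKM in fresh control libraries, without overlap. Of the 4 analysed genes of the tunnel and its exit (RPL4, RPL22, RPL23A and RPL35) RPL23A alone passed.

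In the small subunit RPSA, a protein of the 40S that is also known as a laminin receptor precursor, had 197, 382 and 223 FPKM in vitrification I libraries, against 529, 1376 and 1136 FPKM in fresh control libraries. The highest vitrification I library lay below the lowest control, and the change was -1.87 ± 0.44 (adjusted p = 0.00981). RPS12, of the head of the subunit, had 166, 205 and 144 FPKM in vitrification I libraries, against 314, 812 and 588 FPKM in fresh control libraries, and its change was -1.64 ± 0.40 (adjusted p = 0.0112). RPS27A, which is made as a fusion with ubiquitin, had 61.7, 64.9 and 45.9 FPKM in vitrification I libraries, against 124, 227 and 186 FPKM in fresh control libraries, a change of -1.59 ± 0.39 (adjusted p = 0.0123). RPS18, also of the head, had 406, 622 and 407 FPKM in vitrification I libraries, against 1086, 1598 and 1599 FPKM in fresh control libraries, without overlap, and fell by 1.58 ± 0.33 (adjusted p = 0.00539). Of the 12 analysed genes of the head 7 fell, with a median of -1.09, and of the 9 genes along the path of the message 6 fell, with a median of -1.26. RPS3 at the entry of the message had a change of -1.02 ± 0.42 (adjusted p = 0.106) and RPS4X, an X-linked protein of the body in human, of -0.57 ± 0.32 (adjusted p = 0.231), and neither was called. RPL38 of the large subunit, which in mouse favours the translation of Hox messages, was not called either, at -0.87 ± 0.37 (adjusted p = 0.117). RPS26 fell by 1.39 ± 0.39 (adjusted p = 0.0215).

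Several libraries decided the number of calls in this comparison. Leaving out control 2 or 3 left 4 and 8 calls, and leaving out vitrification I replicate 1 or 3 left 10 and 12. With vitrification I represented by its replicate 2 alone, and so by 1 library, 0 genes were called, while the median was -0.73 over the family and 0.20 over all genes. The family then lay at -0.93 relative to all genes, against -0.96 with all libraries. RPL14, RPL37, RPLP1 and RPS18 kept their calls in all fits that left out 1 library and under the other pseudocount, filter and normalizations. Without control 2 the calls of RPL23A, RPSA, RPL10, RPS12 and RPS27A ended (adjusted p between 0.0508 and 0.0791). That of RPL10 also ended without control 3 or vitrification I replicate 1. The calls of RPL3, RPLP0 and RPS26 ended without control 2, control 3 or vitrification I replicate 1 or 3. Without a filter on low values 6 genes were called. After rescaling to the nuclear total, which moves the median of all genes to 0.26, and after quantile normalization, 16 were called each, and the median of the family stayed below 0 at -0.53 and -0.60. Genes above 0 numbered 11550 to 14039 in vitrification I and 15383 to 16046 in fresh control. The mitochondrial share was 43.8% to 64.3% in vitrification I and 37.6% to 43.9% in fresh control, with an overlap. Of the 9 trophectoderm markers TEAD4, ELF3, KRT8 and KRT18 fell and TFAP2A rose, with 153.5, 95.8 and 120.7 FPKM in vitrification I, against 13.7, 9.42 and 6.21 FPKM in fresh control. The 4 falls numbered 3 after rescaling, 3 after quantile normalization and 2 without a filter on low values, and the count of 1 rise stayed. KRT8 and KRT18 made up most of the summed level, and the mean log2(FPKM + 1) of the 9 genes overlapped, at 5.03 to 5.50 in vitrification I and 5.40 to 5.90 in fresh control. The part of these differences in the result was not tested.

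Vitrification II set against vitrification I gave rises. Of the 55 genes 35 rose and 0 fell, or 63.6% of the family, where 34.7% of all genes rose and 3.75% fell. Among genes with a mean of at least 100 FPKM, 36.3% rose and 8.85% fell. The median change was 1.10 over the family and 0.68 over all genes, and in 49 genes all vitrification II libraries lay above all vitrification I libraries, which was so for 42.6% of all genes. Of the large subunit genes 15 of 27 rose and of the small subunit genes 20 of 28. The mitochondrial genome held 16.9% to 22.1% of the FPKM in vitrification II, against 43.8% to 64.3% in vitrification I. Markers of inner cell mass and epiblast, which form the embryo proper, were also compared. POU5F1 and SOX2 were matched to no identifier. The mean log2(FPKM + 1) of 5 such genes was 3.95 to 4.14 in vitrification II and 1.87 to 3.13 in vitrification I, and LIN28A had 81.6, 45.7 and 24.5 FPKM in vitrification II, against 0.502, 1.66 and 0.328 FPKM in vitrification I. Of these 5 genes LIN28A and KLF4 rose, as did ELF3, TEAD4 and KRT8 of the 9 trophectoderm markers, where 34.7% of all genes rose. NANOG, DPPA5 and ESRRB overlapped between the groups. The count of 2 rises among the 5 genes became 1 after rescaling and 1 after quantile normalization. The part of these differences in the result was not tested.

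RPSA had 1089.8, 1085 and 1230.1 FPKM in vitrification II libraries, against 197, 382 and 223 FPKM in vitrification I libraries, the largest change of the family at 2.14 ± 0.44 (adjusted p = 0.00177). The vitrification II libraries were close together and far above those of vitrification I. RPLP1 had 2141, 2230.3 and 2075 FPKM in vitrification II libraries, against 609, 896 and 440.2 FPKM in vitrification I libraries, a change of 1.79 ± 0.35 (adjusted p = 0.00132). RPL13A, a surface protein of the large subunit, had 554, 845 and 443 FPKM in vitrification II libraries, against 151, 252 and 152 FPKM in vitrification I libraries, with a change of 1.72 ± 0.40 (adjusted p = 0.00384). Its vitrification II replicate 2 stood above the other libraries of that group. RPS14, of the platform of the small subunit, had 788, 756 and 584 FPKM in vitrification II libraries, against 203, 334 and 158 FPKM in vitrification I libraries, a change of 1.67 ± 0.37 (adjusted p = 0.00281). RPS27A rose by 1.57 ± 0.39 (adjusted p = 0.00622). RPS23, a protein of the decoding centre, had 729, 554 and 635 FPKM in vitrification II libraries, against 197, 268 and 195 FPKM in vitrification I libraries, and rose by 1.54 ± 0.34 (adjusted p = 0.00294). None of these genes had an overlap between the groups.

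Of the 9 genes along the path of the message 8 rose, RPS15 being the exception at 0.63 ± 0.32 (adjusted p = 0.133), and of the 12 genes of the head 10 rose. RPLP0 and RPLP1 rose, and RPLP2 had a change of 0.86 ± 0.36 (adjusted p = 0.0677). RPL5, RPL11, RPL10 and RPL36A, proteins near the tRNA sites or the face between the subunits, were not called, with changes from 0.37 to 0.81. In all, 21 genes were called both here and for vitrification I against fresh control, 39 in at least 1 of the 2 comparisons, and 16 in neither. The comparisons share the vitrification I libraries. These overlaps were counted in the family only, so no share of all genes stands beside them, and they are not read as a result about the family. Leaving out vitrification I replicate 3 left 21 rises, and leaving out vitrification II replicate 3 left 23. With vitrification I represented by its replicate 2 alone, and so by 1 library, 0 genes were called, while the median was 0.76 over the family and 0.42 over all genes. The family then lay at 0.34 relative to all genes, which was 0.42 with all libraries. After rescaling to the nuclear total 8 genes rose, RPS27A no longer among them, 1 gene fell and the median of the family was 0.46. The rises numbered 23 without a filter on low values. After quantile normalization 2 genes fell, and the median of the family was 0.62. RPL13A, RPLP0, RPLP1, RPS14, RPS23, RPS9 and RPSA kept their calls in all fits that left out 1 library and under the other pseudocount, filter and normalizations.

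Vitrification II set against fresh control gave no call among the 55 genes by limma, whereas 24.6% of all genes rose and 1.09% fell. Among genes with a mean of at least 100 FPKM, 6.55% rose and 7.43% fell. In the family 1 gene was higher and 2 were lower at an unadjusted p below 0.05, without the share of all genes at that threshold. In 9 genes all vitrification II libraries lay above all controls and in 3 below, which was so for 44.0% and 3.41% of all genes. The median change was 0.08 over the family and 0.62 over all genes, and after rescaling to the nuclear total -0.06 and 0.50. Without a filter on low values the medians were 0.08 and 0.05, and after quantile normalization 0.01 and -0.03. In the main fit the median among the genes with a mean of at least 100 FPKM was -0.03, near that of the family. RPL22, which binds RNA and is dispensable for translation in mouse, came nearest to a call. It had 334, 292 and 307 FPKM in vitrification II libraries, against 173, 169 and 158 FPKM in fresh control libraries. The groups did not overlap, and the change was 0.89 ± 0.33 (adjusted p = 0.0549). RPL36A had 309, 205 and 617 FPKM in vitrification II libraries, against 501, 904 and 759 FPKM in fresh control libraries, a change of -1.04 ± 0.42 (adjusted p = 0.076). Here vitrification II replicate 3 lay within the controls and its replicates 1 and 2 below them. RPL10 had 699, 395 and 811 FPKM in vitrification II libraries, against 624, 1789 and 1341 FPKM in fresh control libraries, again with a wide spread, and a change of -0.91 ± 0.42 (adjusted p = 0.117). RPL37 had a change of -0.71 ± 0.36 (adjusted p = 0.158). The count of genes higher was 1 without vitrification 1, vitrification 2 or vitrification I replicate 2 or 3, and in a fit on the 2 groups only. The count of genes lower was 2 without control 1, 1 without vitrification II replicate 3 and 1 after rescaling.

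Vitrification set against fresh control likewise gave no call in the family by limma, where 1.25% of all genes rose and 0.117% fell. Without adjustment 3 genes were lower and 0 higher (p below 0.05), and the share of all genes at that threshold is not given here. The median change was -0.39 over the family and 0.19 over all genes, and after quantile normalization -0.04 and -0.05. The 2 vitrification libraries differed from each other by more than this for most of the genes. RPLP1 had 1855 and 983 FPKM and RPSA had 1018 and 373 FPKM in vitrification, so that vitrification 1 lay among the controls and vitrification 2 below them. RPS29, a small zinc-binding protein of the head, departed most. It had 779 and 459.9 FPKM in vitrification libraries, against 990.5, 1583 and 1338 FPKM in fresh control libraries, and its change of -1.10 ± 0.37 (adjusted p = 0.129) did not pass. RPL37 and RPL36 had changes of -0.98 ± 0.41 (adjusted p = 0.212) and -0.93 ± 0.38 (adjusted p = 0.206), and RPS10, among 4 genes with a change above 0, of 0.14 ± 0.36 (adjusted p = 0.881).

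Between the vitrified groups, vitrification I set against vitrification gave 1 call. RPS18 had 406, 622 and 407 FPKM in vitrification I libraries, against 1573 and 969.9 FPKM in vitrification libraries, and fell by 1.40 ± 0.37 (adjusted p = 0.0424), where 4.42% of all genes fell and 1.21% rose. The call ended in 9 of the 11 fits that left out 1 library, those without control 1 and vitrification I replicate 2 being the exceptions, and 2 genes were called without vitrification I replicate 2. The median change was -0.65 over the family and -0.26 over all genes. At an unadjusted p under 0.05, 19 genes were lower. The share of all genes at that threshold is not given here, so this count is not read as a result about the family. Vitrification II set against vitrification gave 0 calls in the family by limma, where 5.05% of all genes rose and 0.935% fell. Without vitrification I replicate 3, 1 gene rose. The medians were 0.47 over the family and 0.46 over all genes. Without adjustment 5 genes were higher and 0 lower (p below 0.05), again with no share of all genes beside them.

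**Figure D3:**
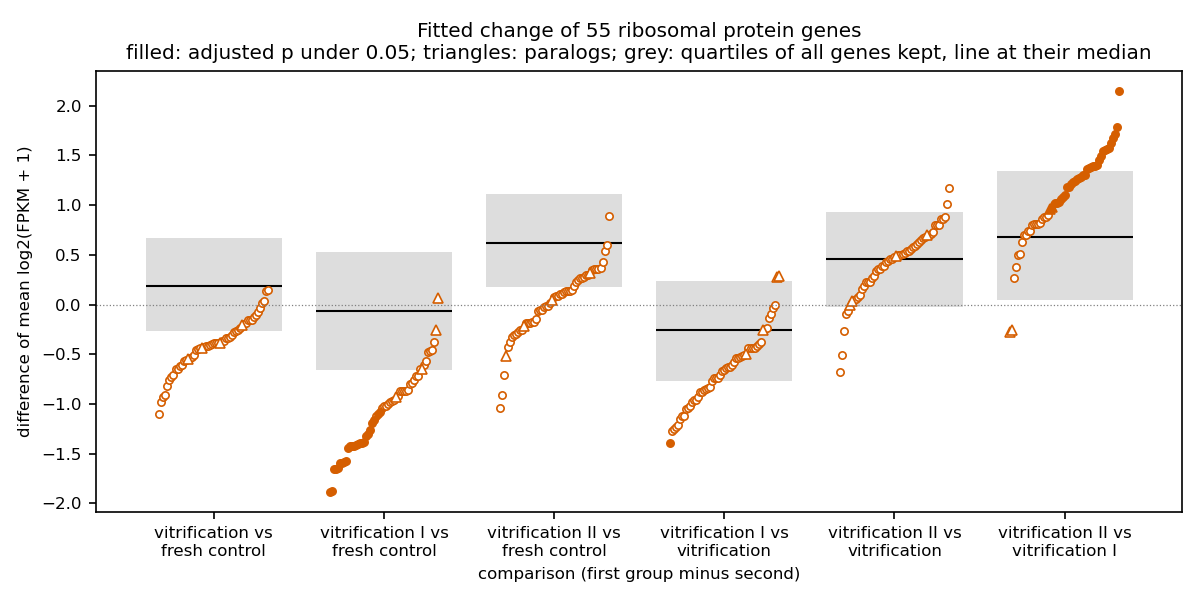
Fitted change of each of the 55 genes (points, ordered by size) in the 6 comparisons, as the difference of mean log2(FPKM + 1), first-named group minus the other. Filled points passed an adjusted p under 0.05, triangles are the 4 paralogs, grey boxes run from the lower to the upper quartile of all genes kept and black lines their median; 25 points are filled for vitrification I against fresh control and 35 for vitrification II against vitrification I.

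The 4 paralogs above the filter did not follow the core genes alike. RPS27L, which differs from RPS27 by a few residues and in human is induced by p53, had 85.2, 87.7 and 46.0 FPKM in vitrification I libraries, against 73.0, 60.6 and 68.1 FPKM in fresh control libraries. The groups overlapped, and the change was 0.06 ± 0.35 (adjusted p = 0.92). RPL36AL, an autosomal copy of the X-linked RPL36A in human, had 164, 175 and 104 FPKM in vitrification I libraries, against 133, 203 and 189.9 FPKM in fresh control libraries, with a change of -0.26 ± 0.34 (adjusted p = 0.638). RPL36A itself had 283, 309 and 205 FPKM in vitrification I libraries, against 501, 904 and 759 FPKM in fresh control libraries, and fell by 1.42 ± 0.42 (adjusted p = 0.0283), a call that ended without control 2, control 3 or vitrification I replicate 1 or 3. RPL36AL stood at 57.9%, 56.6% and 50.5% of RPL36A in vitrification I, against 26.5%, 22.4% and 25.0% in fresh control. In vitrification II this ratio was 35.1%, 70.3% and 18.0% and in vitrification 20.0% and 23.5%. RPL26L1 and RPL7L1, a paralog of RPL26 and a relative of RPL7 linked to ribosome assembly, were not called against fresh control, at -0.93 ± 0.34 (adjusted p = 0.0666) and -0.64 ± 0.36 (adjusted p = 0.223). Both rose in vitrification II set against vitrification I, by 0.98 ± 0.34 (adjusted p = 0.0325) and 0.96 ± 0.36 (adjusted p = 0.0452). The call of RPL26L1 ended in 6 and that of RPL7L1 in 9 of the 11 fits that left out 1 library, and both ended after rescaling and after quantile normalization.

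To set single genes against the family, log2(FPKM + 1) of all genes was also centred on the median of the 55 genes in each library, a scale chosen after the values were seen. On it 43.4% of all genes were higher in vitrification I than in fresh control, and 3 of the 55 genes were. They were RPS27L with 1.30 ± 0.44 (adjusted p = 0.0189), RPL36AL with 0.97 ± 0.39 (adjusted p = 0.0417) and RPL7 with 0.86 ± 0.33 (adjusted p = 0.033). The call of RPS27L ended without control 2, control 3 or vitrification I replicate 1. That of RPL7 ended without control 2, control 3 or any 1 of the vitrification I libraries, and that of RPL36AL without any of these 5 or any 1 of the vitrification II libraries. Vitrification II set against vitrification I had RPS27L at -1.39 ± 0.44 (adjusted p = 0.0284) and RPL36AL at -1.37 ± 0.39 (adjusted p = 0.0157) on this scale, where 12.4% of all genes were lower and 3.51% higher. RPSA was at 1.03 ± 0.32 (adjusted p = 0.0249). These calls ended without vitrification I replicate 1, and without vitrification II replicate 1 or 3. That of RPSA also ended without vitrification II replicate 2, and that of RPS27L without any 1 of the 6 libraries. RPL22 was at 1.01 ± 0.38 (adjusted p = 0.0718) in vitrification II set against fresh control and was not called.

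**Figure D4:**
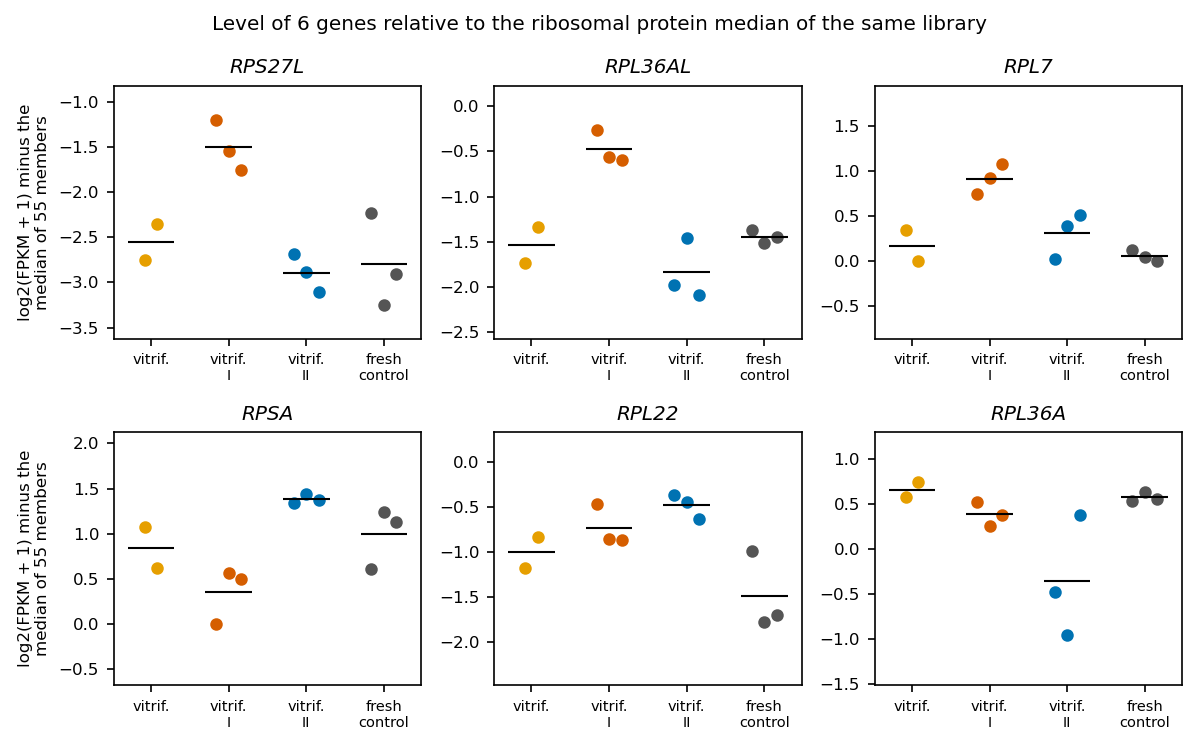
Level of 6 genes in each library as log2(FPKM + 1) minus the median of the 55 ribosomal protein genes of that library; each panel spans 2.8 log2 units, points are libraries and lines are group means. RPS27L, RPL36AL and RPL7 stand highest in the 3 vitrification I libraries, and RPL36A is spread widely in vitrification II.

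Proteins that work beside the ribosome moved with it in part. Of 5 analysed partners, 3 fell in vitrification I set against fresh control, RACK1 and BTF3 among them, where 9.77% of all genes fell. Among genes with a mean of at least 100 FPKM, 25.1% fell. RACK1, a scaffold on the head of the 40S, averaged 237 ± 86.1 FPKM in vitrification I and 521 ± 59.4 FPKM in fresh control and fell by 1.20 ± 0.35. BTF3, of the nascent chain complex, averaged 180.1 ± 51.0 FPKM in vitrification I and 474 ± 101 FPKM in fresh control and fell by 1.41 ± 0.35. The 3 calls ended without control 2, where 0 of the 5 were called, and with vitrification I represented by its replicate 2 alone. That of RACK1 also ended after rescaling and after quantile normalization, and without control 3 or vitrification I replicate 1 or 3. Proteins of the mitochondrial ribosome are encoded in the nucleus and form a separate machine. Of their 64 genes, 17 (26.6%) fell in vitrification I set against fresh control, where 9.77% of all genes fell, with a median of -0.69. In vitrification II set against vitrification I 29 (45.3%) rose, where 34.7% of all genes rose, with a median of 0.96. The count of 17 was 8 without control 3, 24 without vitrification I replicate 2, 9 after rescaling to the nuclear total and 3 with vitrification I represented by its replicate 2 alone. The count of 29 was 12 after quantile normalization, 11 after rescaling and 6 with that library alone, and 4 and 2 genes fell after quantile normalization and after rescaling.

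Genes that build ribosomes were compared in the same way. In vitrification II set against fresh control, 13 of 33 genes (39.4%) of the small subunit processome and its guide RNA particles rose, 13 of 42 (31.0%) of 60S assembly, 2 of 14 (14.3%) of 40S assembly and 4 of 16 (25%) of RNA polymerase I and its factors, and 0 fell. Of all genes 24.6% rose in this comparison, so the last 3 shares were near it or below it. Their medians were 0.97, 0.90, 0.80 and 0.83, where the ribosomal proteins had 0.08 and all genes 0.62. The ribosomal proteins thus lay at -0.54 relative to all genes, which was 0.02 without a filter on low values and 0.04 after quantile normalization. UTP6, of the processome, averaged 16.1 ± 3.12 FPKM in vitrification II and 1.87 ± 0.769 FPKM in fresh control, a rise of 2.60 ± 0.38. WDR36 and UTP20 of the same particle rose by 2.22 ± 0.45 and 2.09 ± 0.40. In 60S assembly NMD3, which takes the subunit out of the nucleus, averaged 27.9 ± 6.35 FPKM in vitrification II and 6.61 ± 2.77 FPKM in fresh control and rose by 1.98 ± 0.41, and the nucleolar GTPase GTPBP4 rose by 1.63 ± 0.35. RIOK3, a kinase that binds precursors of the 40S, averaged 96.8 ± 16.5 FPKM in vitrification II and 30.0 ± 15.3 FPKM in fresh control and rose by 1.76 ± 0.40. POLR1B, a core subunit of RNA polymerase I, averaged 6.74 ± 3.07 FPKM in vitrification II and 1.01 ± 0.385 FPKM in fresh control and rose by 1.89 ± 0.37.

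After quantile normalization, which removes the shift of all genes, 6, 0, 1 and 0 genes of these lists rose (processome, 60S assembly, 40S assembly, RNA polymerase I). Without control 2 the counts were 7, 4, 1 and 3, and without control 1 they were 21, 19, 3 and 6. Rescaled to the nuclear total, 5 genes of 60S assembly rose. Genes of the lists were not followed in the fits on 2 groups only. In the other fits UTP6, WDR36, UTP20 and RIOK3 kept their calls, and NMD3, GTPBP4 and POLR1B lost theirs after quantile normalization only. Set against fresh control, vitrification I had 3, 4, 4 and 2 genes of these lists lower (9.09%, 9.52%, 28.6% and 12.5%) and 0 higher, where 9.77% of all genes fell. The lowest counts were 1 in the processome (without vitrification I replicate 1) and, without control 2, 2 in 60S assembly, 1 in 40S assembly and 0 in RNA polymerase I. Without vitrification I replicate 2 the counts were 7 in the processome, 6 in 60S assembly and 6 in 40S assembly, and after quantile normalization 7 in 60S assembly. Of the processome 2 genes were higher without control 1, and 2 after rescaling. TBL3 of the processome averaged 0.693 ± 0.708 FPKM in vitrification I and 8.89 ± 3.28 FPKM in fresh control, a fall of 2.57 ± 0.38. PES1, needed for the 60S, averaged 3.26 ± 1.41 FPKM in vitrification I and 15.7 ± 0.344 FPKM in fresh control, and fell by 2.03 ± 0.36, and BYSL, needed for the 40S, fell by 1.88 ± 0.40. These 3 calls ended with vitrification I represented by its replicate 2 alone, where 0 genes of the 4 lists were called lower.

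Among 16 genes that control the translation or transcription of ribosomal protein messages, LARP1, which binds their terminal motif, averaged 46.4 ± 18.0 FPKM in vitrification I and 5.31 ± 0.302 FPKM in fresh control, and rose by 2.84 ± 0.37. It also averaged 32.8 ± 6.18 FPKM in vitrification II and 5.31 ± 0.302 FPKM in fresh control, a rise of 2.41 ± 0.37. Both calls held in all fits in which the gene was followed, that is all but those on 2 groups only. The comparisons share the controls. MYC, a transcription factor of ribosome synthesis, averaged 7.44 ± 1.67 FPKM in vitrification II and 0.56 ± 0.091 FPKM in fresh control, a rise of 2.42 ± 0.38. RPS6KB1, a kinase of RPS6 downstream of mTOR, averaged 21.2 ± 2.44 FPKM in vitrification II and 6.69 ± 3.03 FPKM in fresh control, and rose by 1.61 ± 0.41, a call that ended without control 2 and after quantile normalization. EIF4EBP1, an inhibitor of cap-dependent initiation, averaged 23.0 ± 18.0 FPKM in vitrification I and 102 ± 39.5 FPKM in fresh control, and fell by 2.27 ± 0.50, a call that ended without a filter on low values and with vitrification I represented by its replicate 2 alone. In all, 6 of the 16 (37.5%) rose in vitrification II and 0 fell, where 24.6% of all genes rose. In vitrification I 3 (18.8%) rose and 2 (12.5%) fell, where 8.85% of all genes rose and 9.77% fell. The count of 6 was 3 without control 2 and 2 after quantile normalization. Of 13 translation factors with the same terminal motif, 2 rose in vitrification, 2 rose and 3 fell in vitrification I and 1 fell in vitrification II, each against fresh control. These were 15.4% in vitrification (1.25% of all genes rose), 15.4% and 23.1% in vitrification I, and 7.69% in vitrification II (1.09% of all genes fell). Without control 2 the counts were 0 in vitrification and 0 in vitrification II, and 1 of the 3 falls in vitrification I was left. PABPC1, which coats the poly(A) tail, averaged 321 ± 111 FPKM in vitrification and 54.3 ± 13.3 FPKM in fresh control. In vitrification I it averaged 161 ± 22.8 FPKM. Its rises were 2.53 ± 0.39, a call that ended without control 2 or vitrification 2, and 1.57 ± 0.35. This factor thus stood opposite to the ribosomal proteins in vitrification I.

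**Figure D5:**
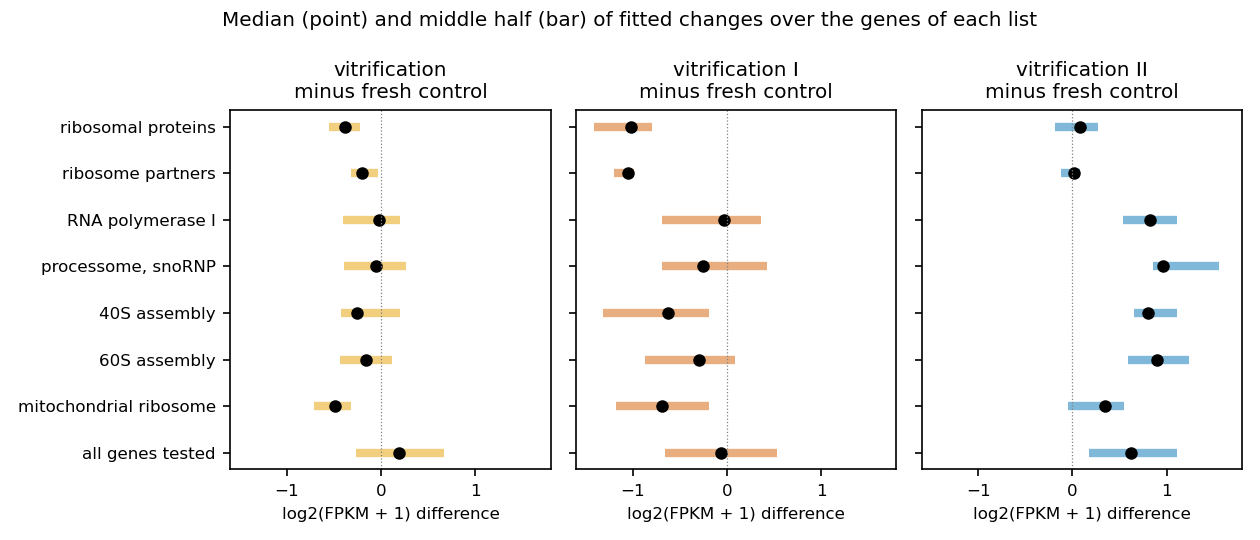
Median (points) and range from lower to upper quartile (bars) of the fitted changes of the genes in 8 sets, as difference of mean log2(FPKM + 1) from fresh control, for vitrification, vitrification I and vitrification II. Ribosomal proteins have medians of -0.39, -1.02 and 0.08, whereas the 4 assembly and RNA polymerase I lists lie between 0.80 and 0.97 in vitrification II.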

How the data were processed

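Gene-level FPKM of 11 libraries were analysed as deposited by the authors, without counts. Per the submitters' processing notes, TopHat2 2.0.13, Cufflinks 2.2.1, FastQC and DESeq2 were used, with no role stated for each, and the genome build is not given in the sources used here. Of 12 labelled libraries, vitrification replicate 3 was not analysed here, as no column bears its name. No pair of libraries was identical.

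Genes were kept with at least 1 FPKM in at least 3 libraries (9411 genes). Log2(FPKM + 1) was modelled by group means, with a trended prior (limma 3.58.1, R 4.3.3). Comparisons are two-sided, and p-values are adjusted (Benjamini-Hochberg) over the genes kept. Fold changes of low genes are understated on this scale. Changes are ± SE and levels mean ± SD. The fit was tested on simulated data with known changes, where most changes of 1 log2 unit were not called. The members and gene lists were chosen with earlier results of these data known. Genes are named by a rule: the 6 largest non-overlapping changes per comparison and direction, the 6 smallest F test p-values, a fixed set, the highest and lowest levels, those departing most from the family median, and up to 4 called genes per list. RPL4, RPL14 and RPS9 were named outside it, after their values were seen. Alternatives were a pseudocount of 0.1, no filter, rescaling, quantile normalization, a replicate block, 2 groups only and leaving out each library.

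Over all genes kept, same-numbered libraries did not deviate together more than others, and the numbers were not used to pair them. The labels give no batch or date. Values of some genes that the rule names are not reported here. No set test was run, and list counts of the main fit are read beside the share of all genes called. Counts in the alternative fits have no such share beside them. Depth is unknown, so no interval or detection limit is given.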

Additional observations from a re-analysis of the deposited data

How the results depend on the processing

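None of the 61 changes called in the family over the 6 comparisons changed sign under any alternative. The number of ribosomal protein genes lower in vitrification I against fresh control, 25, became 6 without a filter on low values, 16 after rescaling to the nuclear total, 16 after quantile normalization and 0 with vitrification I represented by its replicate 2 alone, an alternative added after seeing the data. The number higher in vitrification II against vitrification I, 35, became 23, 8, 24 and 0 in the same 4 settings. Genes lower in that comparison numbered 1 after rescaling and 2 after quantile normalization, against 0. The shares of all genes called in the alternatives are not given here. Without the filter, after rescaling and after quantile normalization the median of the family in that comparison was 1.08, 0.46 and 0.62. Over all genes it was 0.05, 0.23 and -0.04. In vitrification I against fresh control the medians were -1.02, -0.53 and -0.60 over the family and 0, 0.26 and 0.0017 over all genes. The F test count of 32 became 11 without the filter, 7 after rescaling and 20 after quantile normalization. In vitrification II against fresh control 1 gene was lower after rescaling, and 1 higher in a fit on 2 groups only. The lone call in vitrification I against vitrification ended without the filter, with a replicate block and in the fit on 2 groups only, each giving 0. The shares of FPKM outside the mitochondrial genome were 8.53% in vitrification, 6.04% in vitrification I, 8.55% in vitrification II and 9.55% in fresh control, in place of 4.78%, 2.71%, 6.88% and 5.76%.

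Leaving out 1 library at a time gave 4 to 35 genes lower in vitrification I against fresh control, 21 to 39 higher in vitrification II against vitrification I and 11 to 37 by the F test. It gave 0 to 1 higher and 0 to 2 lower in vitrification II against fresh control, 0 to 2 lower in vitrification I against vitrification, and 0 to 1 higher in vitrification II against vitrification. The other counts stayed at 0, and the cause of these shifts was not tested. In the vitrification group the share of FPKM was 3.29% or 6.28% with 1 library left. A lone library left in a group is assumed to vary like the other groups.

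With a replicate block 23 genes were lower in vitrification I against fresh control, 32 higher in vitrification II against vitrification I, and 24 were called by the F test. Deviations of libraries with the same number correlated between -0.158 and 0.143 over 15 pairs. Those with different numbers correlated between -0.136 and 0.158 over 30 pairs, and 3 of 11 libraries correlated best with their own number. Deviations from a group mean sum to 0 within the group, so the pairs are not independent. The check cannot settle whether the numbers mark pairs, and they were not used as such. Groups of 2 or 3 libraries limit the precision.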
